A study of Homo sapiens with 6 samples.

Results

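The nuclear genes of the respiratory chain were followed in the human lung cancer line H358, which has an epithelial character. They were taken from the gene table by symbol: NDUFA, NDUFB, NDUFC, NDUFS and NDUFV genes for complex I, SDHA to SDHD for complex II, UQCR genes and CYC1 for complex III, COX4 to COX8 genes for complex IV and ATP5 genes for complex V. Pseudogene symbols and rows listed at 0 in every library were left out. The rule kept 82 of the 54607 rows, with 35 genes in complex I, 4 in complex II, 9 in complex III, 15 in complex IV and 15 in complex V, and 4 genes whose symbols match but whose products are not subunits. In one group both ESRP1 and ESRP2 were targeted with lentiviral shRNA (short hairpin RNA), and the other had a control knockdown. Each group held 3 libraries, which the submitters call biological triplicates, and n = 3 holds for every mean ± SD given here. ESRP1 and ESRP2 are RNA-binding proteins that regulate splicing in epithelial cells. The sources used here do not give the hairpin sequences, the time after infection or whether the cells were a pool or a clone. Each group has its own constructs, and what they do apart from lowering ESRP cannot be told apart from the loss of ESRP.

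The respiratory chain lies in the inner membrane of the mitochondrion. Complexes I and II take electrons from NADH and succinate, complex III passes them to cytochrome c, complex IV hands them to oxygen, and complex V uses the proton gradient that complexes I, III and IV build to make ATP. Complexes I, III, IV and V each combine subunits encoded in the nucleus with subunits encoded in mitochondrial DNA, whereas all subunits of complex II are encoded in the nucleus.

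Values were FPKM, which count sequenced fragments per kilobase of transcript, scaled to library size. Total depth is unknown. The low values put the depth of the other libraries at 0.997 to 1.66 times that of control replicate 1. In the knockdown, ESRP1 stood at 16.3% and ESRP2 at 54.2% of the control level. All 6 epithelial markers were at 98.5 FPKM or more in every library, and 8 of 9 markers of leukocytes, endothelium and fibroblasts were below 1 FPKM in every library. The exception was the collagen gene COL1A1, at up to 10.8 FPKM. In bulk RNA a change in the make-up of the cells and a change of RNA per cell cannot be told apart.

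Most respiratory chain genes differed little between the groups. A gene was called when the adjusted p of limma, fitted to log2(FPKM + 1) over the 13611 rows whose mean reached 1 FPKM, was below 0.05, and fold changes are given as knockdown minus control on that log2 scale. Of the 81 members at that level, 6 were called, 2 higher and 4 lower in the knockdown, which is 7.41% of the members. Over all tested rows 16.7% were called, 6.54% higher and 10.2% lower. The called members were COX6B2, UQCRB, NDUFS4, NDUFB10, SDHD and CYC1. COX6B2 was the only one that stayed called whichever of the 6 libraries was left out. The range of the 3 knockdown libraries lay apart from that of the 3 controls for 20 members (24.7%), 9 of them higher and 11 lower. Over all tested rows the groups were apart for 38.1%, 17.3% higher and 20.9% lower. At an unadjusted limma p below 0.05 there were 19 members, against 32.9% of all tested rows.

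The size of the differences was small as well. Of the 81 members 40 had a log2 fold change above 0 and 41 below it. The median log2 fold change was -0.0026 over the members and -0.0021 over all tested rows. For 78 members (96.3%) the 95% interval of the log2 fold change lay within 1.25-fold in both directions, against 74.7% of all tested rows. The 3 members whose interval reached past 1.25-fold were COX6B2, NDUFB5 and NDUFA4. The members are abundant transcripts, with a median of 94.8 FPKM, and a median SE of the log2 fold change of 0.04, against 0.05 over all tested rows. Among rows at a mean of 30 FPKM or more, the interval lay within 1.25-fold for 97.3% of the members and 91.7% of all rows. Much of the gap in that share thus goes with level. Of these rows, 5 of 75 members (6.67%) and 25.7% of all 3220 rows were called. That level was chosen after the data were seen.

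**Figure D1:**
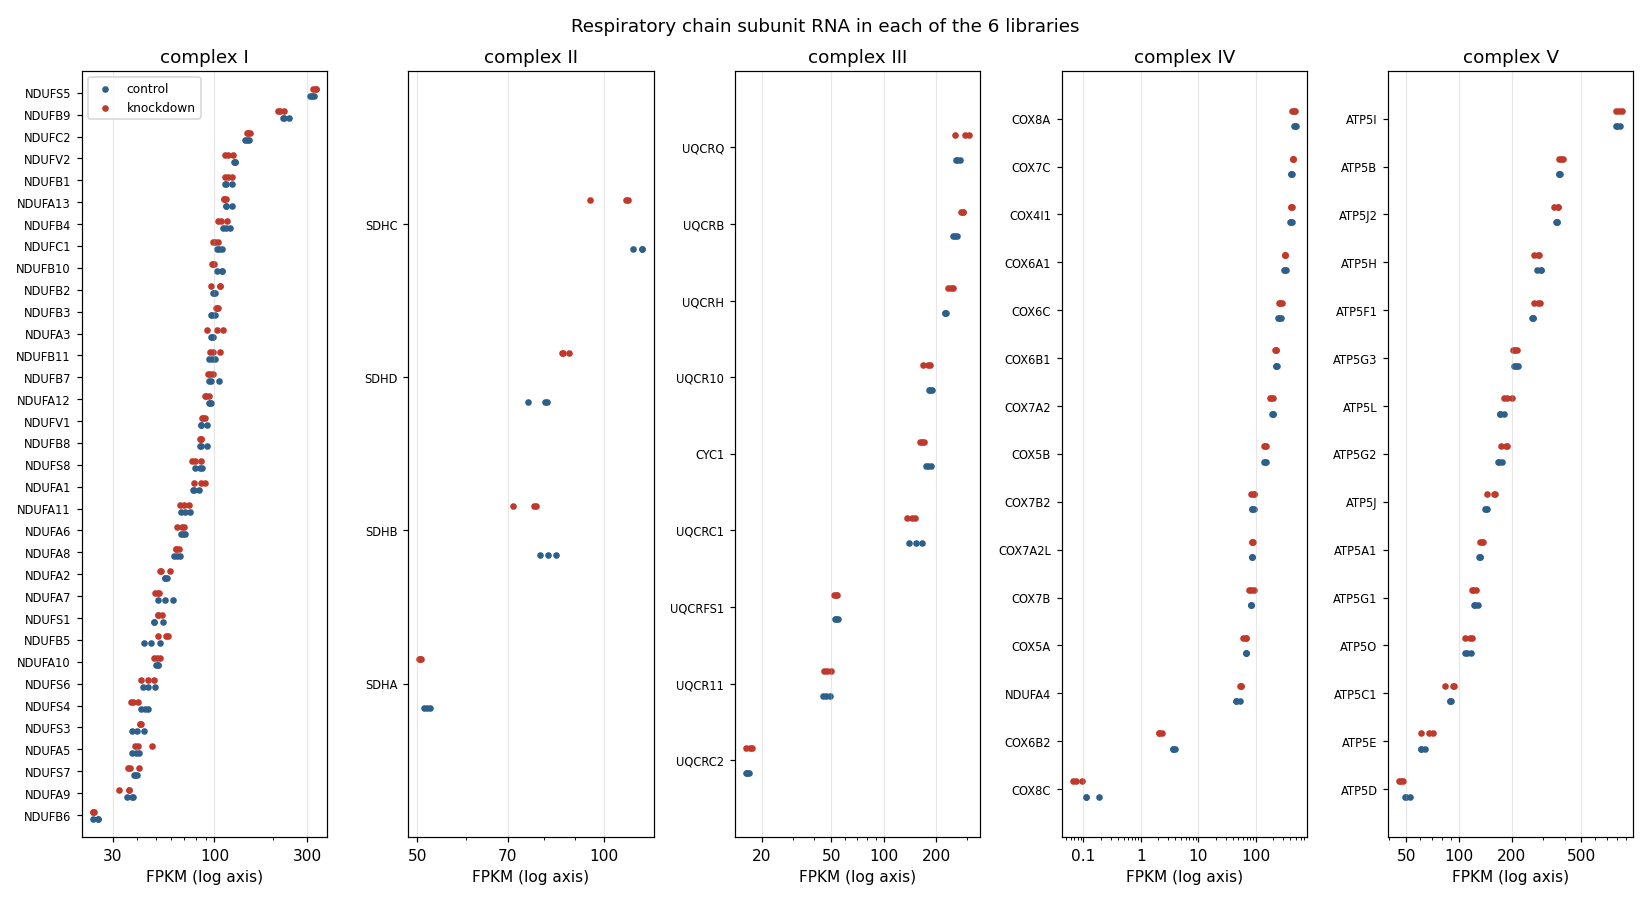
FPKM of members of the 5 complexes in each of the 6 libraries, on log axes that differ between panels. Blue points are the control and red points the knockdown libraries, and the members are ordered by their mean level. Within complex IV, COX8C and COX6B2 stand far below the other members, and in most members the red and blue points share a range.

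Promoter sequences were taken from RefSeq (GRCh38.p14, from 250 bases before to 50 bases after each start). They were matched by Ensembl ID, or by symbol where that gave none, for 66 members. Of these 64 were subunits, out of 78, and the subunit shares below cover only those 64. The windows were searched on both strands for the binding motifs of factors known to drive nuclear respiratory genes. NRF1, nuclear respiratory factor, was searched by its palindromic 10-base motif with any base at position 5, the ETS factors, which include GABP, as CCGGAAG, and YY1 as AAGATGG. The NRF1 motif was in 16 of the 64 subunit promoters (25%) and in 6.29% of all 27305 promoters. The ETS motif was in 19 (29.7%) and in 10.7% of all promoters, and the YY1 motif in 16 (25%) and in 6.06%. At least 1 of the motifs was in 39 subunit promoters (60.9%) and in 20.5% of all promoters. Subunit promoters held a median of 22.5 CG pairs, against 14 in all promoters. The NRF1 and ETS motifs themselves contain CG pairs, and all promoters were not matched to the subunits for CG pairs. The part of CG content in the motif shares was not tested. The promoters of 4 called members are shown to set their letters side by side, with any of the 3 motifs in capitals:
COX6B2: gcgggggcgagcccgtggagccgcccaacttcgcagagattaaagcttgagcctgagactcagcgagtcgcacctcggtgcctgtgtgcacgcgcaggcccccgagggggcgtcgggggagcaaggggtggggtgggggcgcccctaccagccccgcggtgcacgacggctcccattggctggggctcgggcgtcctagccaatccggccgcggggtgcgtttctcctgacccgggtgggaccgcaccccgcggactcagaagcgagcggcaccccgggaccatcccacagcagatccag
NDUFS4: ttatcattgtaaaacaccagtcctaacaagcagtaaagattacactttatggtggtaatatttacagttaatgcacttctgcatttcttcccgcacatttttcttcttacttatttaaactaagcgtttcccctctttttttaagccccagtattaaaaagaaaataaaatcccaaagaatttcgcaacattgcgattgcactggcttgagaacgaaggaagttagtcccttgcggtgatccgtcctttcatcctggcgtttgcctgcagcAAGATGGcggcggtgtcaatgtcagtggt
NDUFB10: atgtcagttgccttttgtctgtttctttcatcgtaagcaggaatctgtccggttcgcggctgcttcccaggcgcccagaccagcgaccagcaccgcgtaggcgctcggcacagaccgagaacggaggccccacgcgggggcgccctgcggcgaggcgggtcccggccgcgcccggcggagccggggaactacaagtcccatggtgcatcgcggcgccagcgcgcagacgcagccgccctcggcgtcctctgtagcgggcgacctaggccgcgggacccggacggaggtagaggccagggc
SDHD: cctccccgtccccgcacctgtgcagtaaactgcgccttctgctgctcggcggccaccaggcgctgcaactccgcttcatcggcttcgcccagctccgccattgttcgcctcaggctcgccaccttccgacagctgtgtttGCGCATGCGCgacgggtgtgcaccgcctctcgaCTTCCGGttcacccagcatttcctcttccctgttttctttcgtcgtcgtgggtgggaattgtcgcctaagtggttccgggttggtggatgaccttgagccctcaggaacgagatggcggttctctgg
The SDHD window (chr11:112086623-112086922, plus strand) holds an NRF1 motif (the first run of capitals) and, on the opposite strand, an ETS motif. The NDUFS4 window (chr5:53560389-53560688, plus strand) holds a YY1 motif. The windows of COX6B2 (chr19:55354670-55354969, minus strand) and NDUFB10 (chr16:1959288-1959587, plus strand) hold none of the 3 motifs but 31 and 39 CG pairs. A match of letters is a description and not a site of binding.

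COX6B2, which encodes the testis form of a small subunit of complex IV, was lower in the knockdown. It lies in hg19 on chromosome 19, 55861076 to 55866182. It stood at 2.10, 2.31 and 2.08 FPKM in knockdown replicates 1, 2 and 3 and at 3.64, 3.56 and 3.99 FPKM in control replicates 1, 2 and 3. Every knockdown library lay below every control library, and the knockdown mean was 58.0% of the control mean. The log2 fold change was -0.58 (SE 0.07, limma adjusted p = 0.0019). The ubiquitous form COX6B1 stood at 224 ± 4.1 FPKM in knockdown cells and 227 ± 6.1 FPKM in the control (log2 fold change -0.02, adjusted p = 0.70). COX6B2 thus made up 0.959% ± 0.061 of the summed FPKM of both forms in the knockdown and 1.62% ± 0.075 in the control.

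The other complex IV members were not called. Of 14 tested, 1 was called (7.14%, against 16.7% of all tested rows). The median log2 fold change was 0.01, and the summed FPKM of the 15 members was 2850 ± 82 in the knockdown and 2836 ± 63 in the control. COX8A, the member at the highest level, stood at 458 ± 32 and 484 ± 15 FPKM (adjusted p = 0.32). COX4I1, the ubiquitous form of subunit 4, stood at 416 ± 8.2 and 411 ± 15 FPKM, COX5A at 64.4 ± 4.2 and 67.4 ± 0.53 FPKM and COX5B at 146 ± 5.4 and 144 ± 5.1 FPKM. The intervals of the log2 fold changes of COX4I1, COX5A and COX5B reached from -0.17 (COX5A) to 0.10 (COX5B). That of COX8A reached from -0.20 to 0.04, and that of COX7B, also not called, from -0.11 to 0.20.

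NDUFA4 was first counted with complex I and is now placed with complex IV. It stood at 55.0, 54.5 and 53.6 FPKM in the knockdown libraries and at 44.4, 53.1 and 45.4 FPKM in the controls. The 3 knockdown libraries lay above the 3 controls by a small margin over control replicate 2, and the log2 fold change of 0.19 was not called (adjusted p = 0.077). Without control replicate 2 it was called, at a log2 fold change of 0.27. COX7C, which stood at 447 ± 8.2 FPKM in knockdown cells and 418 ± 12 FPKM in the control, differed by 0.10 on the log2 scale (adjusted p = 0.065). With each of the other scalings of the libraries COX7C was called higher.

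Forms of complex IV subunits known from other tissues were mostly listed at 0 or at low levels. COX6A2 and COX7A1, the heart and muscle forms, and COX4I2, a form known from lung and from low oxygen, were listed at 0 in every library, which without counts cannot be read as absent RNA. COX8C, a testis form, stood at 0.078 ± 0.014 FPKM in knockdown cells and 0.137 ± 0.043 FPKM in the control, below the level tested. Their counterparts COX6A1 (322 ± 1.8 and 324 ± 11 FPKM) and COX7A2 (186 ± 9.7 and 195 ± 3.8 FPKM) were abundant and not called. COX7A2L, which joins complexes III and IV into larger assemblies, stood at 87.6 ± 1.8 and 85.5 ± 1.6 FPKM. COX7B2, a form best known from testis, was an exception among the tissue forms, with 51.4% ± 1.5 of the summed FPKM of COX7B and COX7B2 in the knockdown and 51.7% ± 1.1 in the control. Of the excluded pseudogenes, COX6A1P2 stood at 98.8 ± 3.4 and 98.9 ± 4.6 FPKM, and reads from it and from COX6A1 could be split between them by the counting.

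In complex I 2 of 35 members (5.71%) were called, against 16.7% of all tested rows. Both were lower and both accessory subunits, and the median log2 fold change of the complex was -0.03. NDUFS4, an accessory subunit of the arm that binds NADH and a gene whose defects cause Leigh syndrome, lies on chromosome 5 (52856463 to 52979168 in hg19). It stood at 40.2, 38.2 and 37.2 FPKM in the knockdown libraries and at 45.5, 44.2 and 42.0 FPKM in the controls. Every knockdown library lay below every control, at a log2 fold change of -0.18 (SE 0.04, adjusted p = 0.025). Leaving out knockdown replicate 2, knockdown replicate 3, control replicate 1 or control replicate 2 ended the call (highest adjusted p 0.086). NDUFB10, an accessory subunit of the membrane arm, lies on chromosome 16 (2009519 to 2011976). It stood at 98.6, 97.7 and 99.0 FPKM in knockdown cells and at 109, 104 and 109.6 FPKM in the control. The groups did not overlap, and its log2 fold change was -0.12 (SE 0.03, adjusted p = 0.028). Leaving out knockdown replicate 1, knockdown replicate 2, control replicate 1 or control replicate 3 ended the call (highest adjusted p 0.093), as did a correction for GC content and length.

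The 7 core subunits, which carry the flavin, the iron-sulfur clusters and the quinone site, were not called by limma, where 16.7% of all tested rows were called. An unadjusted p below 0.05 was found for 1 of these genes, against 32.9% of all tested rows. That gene was NDUFV2, which stood at 118 ± 5.6 FPKM in knockdown cells and 127 ± 1.2 FPKM in the control, with groups that did not overlap (log2 fold change -0.10, adjusted p = 0.10). It was called lower with TPM scaling, after the correction for GC content and length, and without knockdown replicate 2. NDUFV1, which binds NADH, stood at 87.6 ± 1.2 and 87.2 ± 3.4 FPKM. NDUFS1 stood at 52.2 ± 1.5 and 50.8 ± 3.0 FPKM and NDUFS3 at 41.7 ± 0.28 and 40.5 ± 2.9 FPKM. NDUFS7 stood at 37.8 ± 2.8 and 39.2 ± 0.72 FPKM and NDUFS8 at 80.2 ± 4.3 and 83.5 ± 3.5 FPKM. In each of these the groups overlapped. The row of EEF1B2, at 504 FPKM, overlaps NDUFS1 on the other strand.

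The accessory subunits ranged widely in level. NDUFS5, the highest in complex I, stood at 327 ± 6.8 FPKM in knockdown cells and 317 ± 6.7 FPKM in the control, and NDUFB6, the lowest, at 23.9 ± 0.17 and 24.7 ± 0.76 FPKM. NDUFB5 stood at 56.5, 57.9 and 51.2 FPKM in knockdown cells and at 52.5, 43.5 and 47.1 FPKM in the control. Knockdown replicate 3 lay below control replicate 1, and the log2 fold change of 0.21 was not called (adjusted p = 0.088), although it was the highest estimate in complex I. Without control replicate 1 it was called. Outside the called genes and NDUFV2, the groups of complex I were apart for NDUFA12, NDUFA13 and NDUFB3. NDUFA12 was lower, at 93.4, 90.0 and 89.2 FPKM in the knockdown libraries against 94.1, 95.2 and 95.5 FPKM (adjusted p = 0.16). NDUFA13 was lower, at 113 ± 1.4 against 117 ± 4.8 FPKM (adjusted p = 0.26), and NDUFB3 higher, at 103 ± 1.6 against 97.9 ± 2.3 FPKM (adjusted p = 0.11). None of the 3 was called. Over the 28 accessory subunits the groups overlapped in 23. They were apart for 17.9%, against 38.1% of all tested rows and 46.8% of those at 30 FPKM or more. The summed FPKM of the 35 complex I genes was 3071 ± 63 in the knockdown and 3101 ± 71 in the control.

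NDUFV3, a further accessory subunit, was listed at 0 in every library. It lies in a stretch of hg19 chromosome 21, from 38435146 to 45747259, where 58 consecutive protein-coding rows, from PIGP to PFKL, were all listed at 0, the splicing factor U2AF1 among them, so its 0 cannot be read as absent RNA.

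In complex II, succinate dehydrogenase, the groups were apart for 4 of 4 members, 3 lower and 1 higher, where they were apart for 38.1% of all tested rows and for 46.8% of those at 30 FPKM or more. With 4 genes this is a description. SDHD, a membrane anchor, lies on chromosome 11 (111957497 to 111990353). It stood at 85.6, 87.9 and 86.0 FPKM in knockdown cells and at 81.0, 75.6 and 80.3 FPKM in the control, and was called at a log2 fold change of 0.13 (SE 0.03, adjusted p = 0.036). The call was lost when any 1 of the 6 libraries was left out (highest adjusted p 0.10). The row of TIMM8B, at 85.8 FPKM, overlaps SDHD on the other strand, and the sources used here do not say whether the counting used strand.

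The remaining members of complex II were lower in every knockdown library and not called. SDHC, the other membrane anchor, stood at 108.6, 109.3 and 95.01 FPKM in knockdown cells and at 115.4, 111.3 and 115.2 FPKM in the control (log2 fold change -0.13, adjusted p = 0.14). SDHB, which carries the iron-sulfur clusters, stood at 77.1, 77.9 and 71.5 FPKM and at 81.3, 79.0 and 83.8 FPKM (log2 fold change -0.11, adjusted p = 0.11). Knockdown replicate 3 was the lowest library for both SDHC and SDHB. With TPM scaling and after the correction for GC content and length, SDHB was called lower. SDHA, the flavin-binding subunit, stood at 50.5 ± 0.13 and 51.9 ± 0.64 FPKM (log2 fold change -0.04, adjusted p = 0.36). The summed FPKM of the 4 genes in the knockdown was 97.1% of that in the control.

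In complex III 2 of 9 members (22.2%) were called, in opposite directions. Of all tested rows 16.7% were called, and of those at 30 FPKM or more 25.7%. UQCRB, a small subunit near the quinone site, lies on chromosome 8 (97238148 to 97247862). It stood at 284, 285 and 278 FPKM in knockdown cells and at 249.6, 256 and 262 FPKM in the control. All knockdown libraries were higher, at a log2 fold change of 0.14 (SE 0.03, adjusted p = 0.014), and the call was lost without control replicate 1 or control replicate 2 (highest adjusted p 0.0506). CYC1, the cytochrome c1 that passes electrons to cytochrome c, lies on the same chromosome (145149930 to 145152428). It stood at 169, 166 and 161 FPKM in knockdown cells and at 175, 179 and 186 FPKM in the control. All knockdown libraries were lower, at a log2 fold change of -0.12 (SE 0.03, adjusted p = 0.041). The call was lost when any 1 of the 6 libraries was left out (highest adjusted p 0.12) and after the correction for GC content and length.

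UQCRH, the hinge protein of complex III, stood at 244, 234 and 249 FPKM in knockdown cells and at 224, 226 and 227 FPKM in the control. The groups did not overlap, and the log2 fold change of 0.10 was just outside the threshold (adjusted p = 0.053). With a filter of 5 FPKM and without knockdown replicate 2, UQCRH was called higher. UQCRFS1, the Rieske iron-sulfur protein, stood at 53.0 ± 1.3 and 53.5 ± 0.76 FPKM, and the large structural subunits UQCRC1 and UQCRC2 at 144 ± 7.6 against 153 ± 13 FPKM and at 17.0 ± 0.70 against 16.6 ± 0.32 FPKM. UQCRQ, the highest of the complex, stood at 286 ± 26 and 266 ± 7.3 FPKM (adjusted p = 0.32). The small subunits UQCR10 and UQCR11 stood at 177 ± 8.2 against 185 ± 3.7 FPKM and at 47.5 ± 2.3 against 46.8 ± 2.3 FPKM, with groups that overlapped. The summed FPKM of the 9 genes was 1415 ± 30 in the knockdown and 1383 ± 39 in the control.

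**Figure D2:**
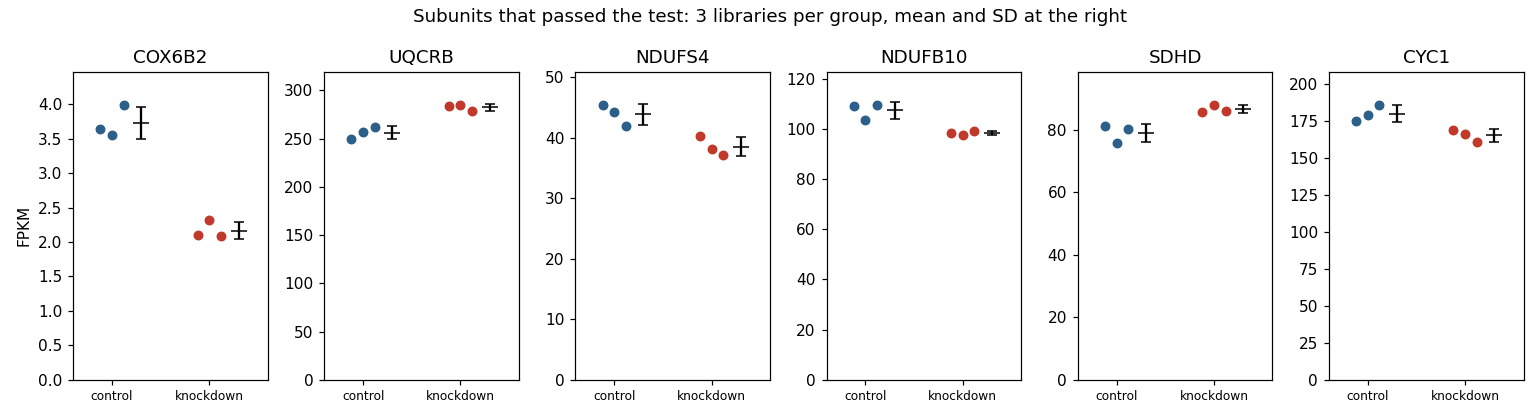
FPKM of the 6 called members in the 3 control and 3 knockdown libraries, from 0, with the mean and SD at the right of each group. The groups do not overlap in any panel, and the knockdown mean is 58.0% of the control mean for COX6B2, with smaller differences in the other panels.

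No member of complex V, the ATP synthase, was called by limma, where 16.7% of all tested rows were called. An unadjusted p below 0.05 was found for 5 of 15, close to the 32.9% of all tested rows. The median log2 fold change was 0.03, with 10 estimates above 0 and 5 below, where all tested rows had 6710 above and 6901 below. In the catalytic F1 part, the alpha subunit ATP5A1 stood at 135 ± 2.8 FPKM in knockdown cells and 131 ± 1.6 FPKM in the control, the beta subunit ATP5B at 382 ± 9.7 and 374 ± 4.0 FPKM and the gamma subunit ATP5C1 at 89.9 ± 5.5 and 88.7 ± 0.59 FPKM. The interval of the log2 fold change of ATP5B reached from -0.03 to 0.09. ATP5D, the delta subunit, was lower in all knockdown libraries, at 46.7, 48.0 and 45.6 FPKM against 49.3, 49.6 and 52.5 FPKM, and was not called (log2 fold change -0.11, adjusted p = 0.077).

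Several subunits of the membrane part and stalks had estimates above 0. ATP5L, subunit g, stood at 188, 201 and 181 FPKM in knockdown cells and at 171, 170.5 and 180.1 FPKM in the control (log2 fold change 0.13, adjusted p = 0.084). ATP5F1, subunit b of the stalk, stood at 282, 289.9 and 268 FPKM and at 264, 259 and 266 FPKM (log2 fold change 0.09, adjusted p = 0.10). In both, knockdown replicate 3 was the lowest of its group and lay just above the controls. ATP5J, coupling factor 6, stood at 158, 161 and 144 FPKM and at 141, 142 and 145 FPKM, and knockdown replicate 3 lay within the range of the controls (log2 fold change 0.11, adjusted p = 0.11). ATP5O, the stalk protein that confers oligomycin sensitivity, stood at 114 ± 5.3 and 112 ± 4.2 FPKM and ATP5H, subunit d, at 279 ± 9.7 and 289 ± 8.5 FPKM. ATP5I, subunit e and the highest of all members, stood at 821 ± 34 and 805 ± 26 FPKM. The summed FPKM of the 15 genes was 3431 ± 123 in the knockdown and 3360 ± 63 in the control.

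ATP5G1, ATP5G2 and ATP5G3 encode the same mature c subunit of the ring that turns in the membrane. ATP5G3 made up 40.8% ± 0.35 of their summed FPKM in knockdown cells and 41.7% ± 0.33 in the control, ATP5G2 35.5% ± 0.92 and 33.7% ± 0.57, and ATP5G1 23.7% ± 1.1 and 24.6% ± 0.89. None was called, and the largest difference was that of ATP5G2, at 182 ± 7.6 against 170.4 ± 5.3 FPKM (log2 fold change 0.10, adjusted p = 0.13).

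**Figure D3:**
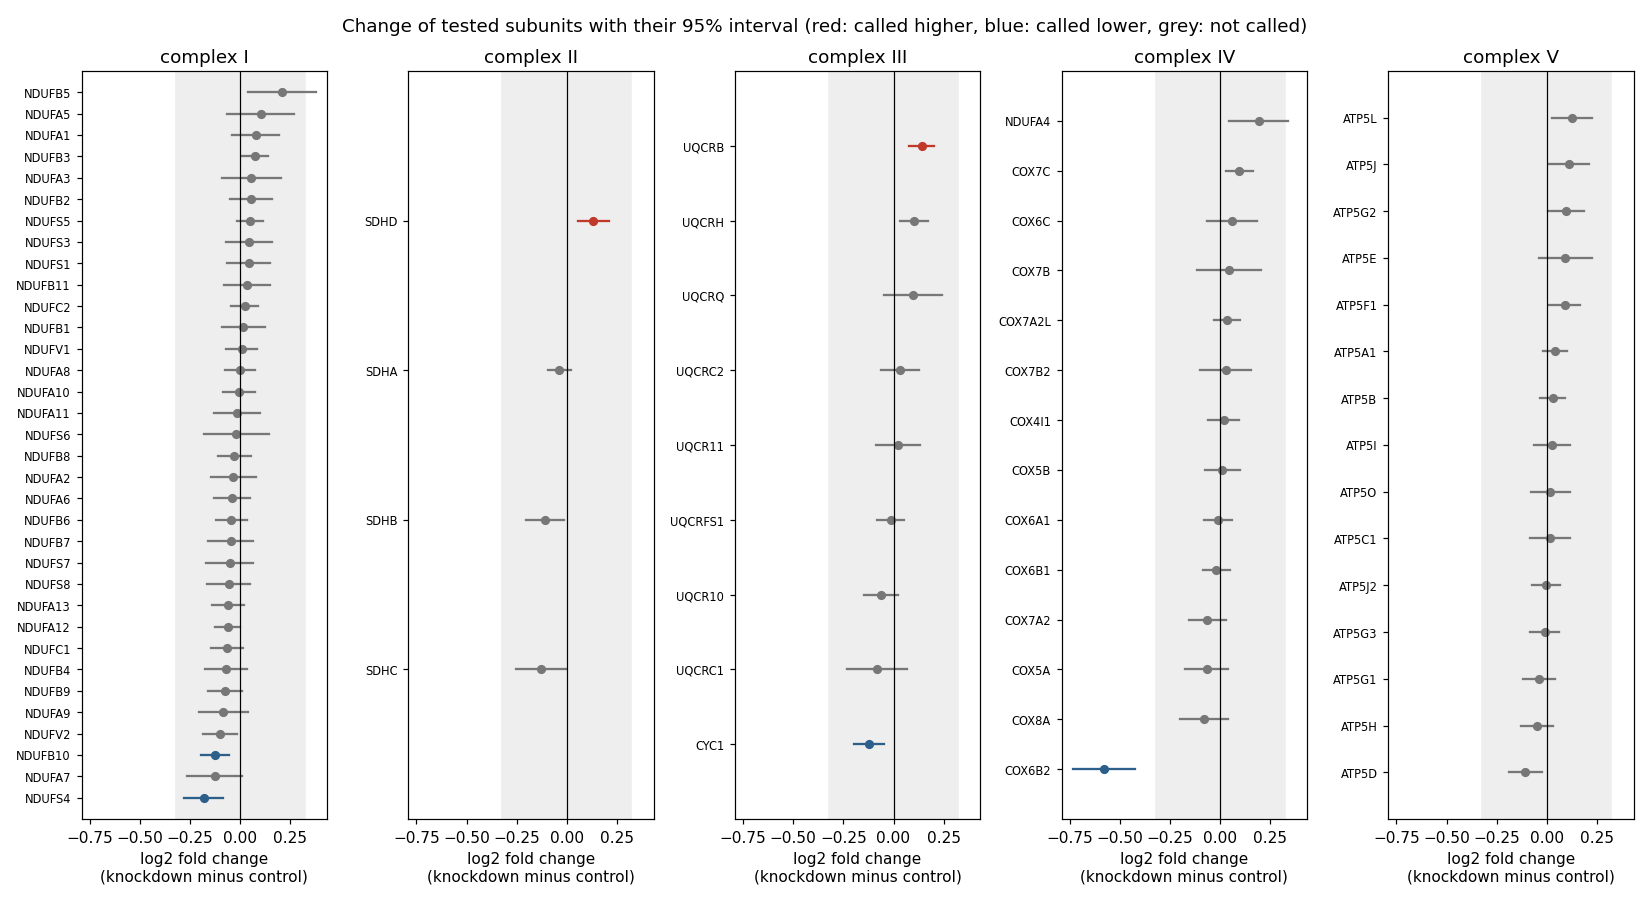
Log2 fold change of tested subunits, knockdown minus control, with its 95% interval from limma. Red marks members called higher, blue those called lower and grey those not called, and the grey band spans 1.25-fold in both directions. COX6B2 lies outside the band, and the intervals of NDUFB5 and NDUFA4 reach past its upper edge.

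The 4 genes that the symbol rule matches but that are not subunits were not called. COX4NB, now EMC8 and part of the ER membrane complex, stood at 34.3 ± 1.6 FPKM in knockdown cells and 32.5 ± 1.1 FPKM in the control. ATP5S and ATP5SL, now DMAC2L and DMAC2, stood at 7.96 ± 0.36 and 8.54 ± 1.4 FPKM and at 25.3 ± 0.25 and 24.7 ± 0.20 FPKM. The readthrough row ATP5J2-PTCD1 stood at 2.67 ± 0.24 and 2.65 ± 0.17 FPKM and shares sequence with ATP5J2.

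The libraries of a group did not behave alike for these genes. Knockdown replicate 3 held the lowest value of 35 of the 81 tested members, where it held the lowest value of 21.8% of all tested rows. Control replicate 3 held the highest value of 29 members and the lowest of 0, where it held the highest value of 16.4% and the lowest of 15.9% of all tested rows. The median log2 deviation of the members from their mean over the 6 libraries was -0.04 in knockdown replicate 3 and 0.03 in control replicate 3, against -0.01 and 0.0009 over all tested rows. Respiratory chain transcripts are short, with a median of 757 bases against 2352 bases for all tested rows. The members under 600 bases had a median deviation of -0.06 in knockdown replicate 3 and the longer ones -0.03. All tested rows under 600 bases had a median deviation of -0.03 in that library and the longer ones -0.01, so members of either length lay lower than all rows of that length. The part of transcript length in these deviations was not tested.

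Leaving out knockdown replicate 3 raised the number of called members to 10, of which 8 were higher and 2 lower. That is 12.3% of the members, against 14.6% of all tested rows in the same fit, a smaller gap than with all libraries. Over all 13611 tested rows that fit called 850 higher and 1133 lower. The member calls were mostly higher, where those of all rows were more often lower. Leaving out a library with low member values raises the member estimates, so this contrast follows from the choice of library. Leaving out control replicate 3 gave 1 member called higher and 2 lower (3.70%, against 8.72% of all tested rows). Without knockdown replicate 3 the called genes were ATP5E, ATP5F1, ATP5G2, ATP5J, ATP5L, NDUFB2, UQCRB and UQCRQ on the higher side and COX6B2 and NDUFB10 on the lower side. Of these, 3 were among the 6 called with all libraries. Complex V went from 0 to 5 calls in this way. With all libraries kept, it had 3 calls, ATP5F1, ATP5G2 and ATP5L, all higher, after the correction for GC content and length, and 1 call, ATP5D, lower, with TPM scaling.

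**Figure D4:**
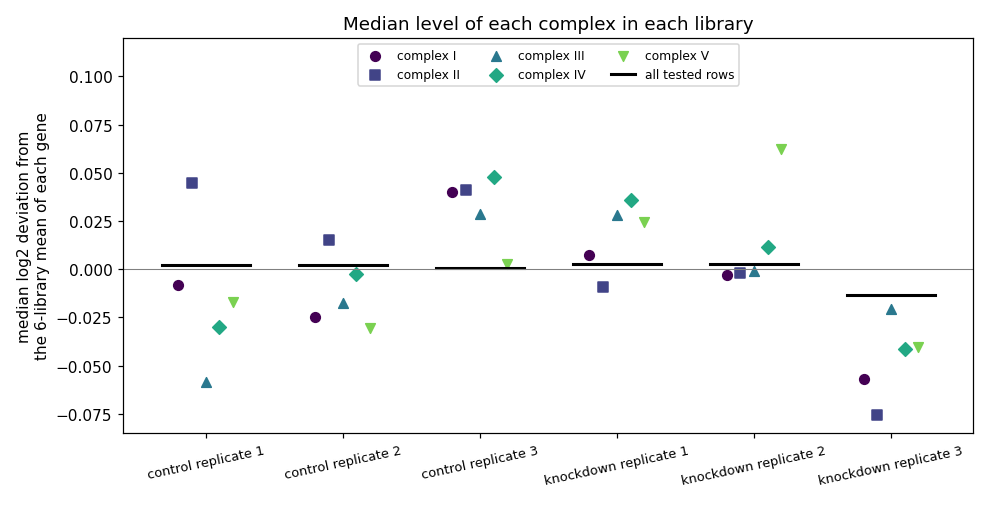
Median log2 deviation of the tested members of each complex from their 6-library mean, for each library, with the black bars showing the same over all 13611 tested rows. In knockdown replicate 3 all complexes lie below the bar, and in control replicate 3 all lie above it.

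Subunits encoded in mitochondrial DNA were measured in the same libraries. None of the 12 tested was called by limma, against 16.7% of all tested rows. At an unadjusted p below 0.05 there were 0, against 32.9% of all tested rows. Their mean levels ran from 336 FPKM for MT-ND6 to 8822 FPKM for MT-CO3, and their median log2 fold change was -0.01. MT-CO1, the catalytic core of complex IV, stood at 8166 ± 64 FPKM in knockdown cells and 8476 ± 52 FPKM in the control. Its groups did not overlap (log2 fold change -0.05, adjusted p = 0.22). MT-ND3, of complex I, was also lower in every knockdown library, at 2748 ± 24 against 2844 ± 20 FPKM (log2 fold change -0.05, adjusted p = 0.21).

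Among assembly factors, 1 of 12 tested for complex I and 1 of 24 tested for complexes II to V were called. Both were lower, where 10.2% of all tested rows were called lower and 6.54% higher. TIMMDC1, which helps to build the membrane arm of complex I, fell from 47.2 ± 1.1 FPKM in the control to 41.0 ± 1.2 FPKM in the knockdown (log2 fold change -0.20, SE 0.03, adjusted p = 0.0082). TTC19, a factor of complex III, fell from 26.3 ± 0.65 to 23.1 ± 0.34 FPKM (log2 fold change -0.18, SE 0.03, adjusted p = 0.011). Both calls held without any 1 of the 6 libraries.

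Of 14 tested regulators of mitochondrial transcription, 1 rose and 1 fell, where 6.54% of all tested rows rose and 10.2% fell. TFB2M, which opens mitochondrial promoters for the polymerase, stood at 14.3 ± 0.38 FPKM in knockdown cells and 12.4 ± 0.49 FPKM in the control (log2 fold change 0.19, adjusted p = 0.022), and POLRMT, the polymerase itself, at 8.70 ± 0.30 and 10.1 ± 0.44 FPKM (log2 fold change -0.19, adjusted p = 0.030). The TFB2M call was lost when knockdown replicate 1, knockdown replicate 2, control replicate 1 or control replicate 3 was left out, and the POLRMT call when any library other than control replicate 1 was left out. Of the factors whose motifs were searched, NRF1 differed by -0.10 on the log2 scale (adjusted p = 0.19), GABPA by 0.05 (adjusted p = 0.66) and YY1 by 0.06 (adjusted p = 0.19), and none was called.

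Of 13 citric acid cycle genes 1 rose and 3 fell, where 6.54% of all tested rows rose and 10.2% fell. The change at succinyl-CoA ligase went both ways. SUCLG2, the GTP-specific beta subunit, fell from 39.0 ± 0.79 to 32.8 ± 1.3 FPKM (log2 fold change -0.24, adjusted p = 0.0050), while SUCLA2, the ATP-specific beta subunit, rose from 23.7 ± 0.52 to 27.1 ± 0.66 FPKM (log2 fold change 0.19, adjusted p = 0.010). Both calls held without any 1 library. OGDH (log2 fold change -0.16, adjusted p = 0.037) and MDH2 (log2 fold change -0.15, adjusted p = 0.047) were called lower, and each call was lost when any library other than knockdown replicate 1 was left out. In coenzyme Q synthesis 1 of 12 genes was called, where 16.7% of all tested rows were called. It was COQ10B, at a log2 fold change of -0.15 (adjusted p = 0.048), and that call was lost when any 1 of the 6 libraries was left out.

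Genes of mitophagy and of the mitochondrial response to low oxygen had the most calls among the lists. Of 7 tested, 5 rose and 0 fell, where 6.54% of all tested rows rose and 10.2% fell. HIGD1A and FUNDC1 were not called. HIGD1A was lower in every knockdown library (log2 fold change -0.07, adjusted p = 0.21), and the groups of FUNDC1 overlapped (log2 fold change 0.03, adjusted p = 0.67). The list was put together with the rise of BNIP3 already known, so its count is not independent evidence. BNIP3L, a receptor for the removal of mitochondria, rose from 63.8 ± 2.1 to 76.4 ± 1.3 FPKM (log2 fold change 0.25, adjusted p = 0.0027). BNIP3, a related receptor, rose at a log2 fold change of 0.61 (adjusted p = 8.7e-05). NDUFA4L2, a relative of NDUFA4 that low oxygen induces, rose from 6.001 ± 0.35 to 7.86 ± 0.63 FPKM (log2 fold change 0.34, adjusted p = 0.014), a call lost without control replicate 2 or 3. LONP1, a protease of the matrix, and PDK1, a kinase that restrains pyruvate dehydrogenase, had log2 fold changes of 0.13 (adjusted p = 0.024) and 0.21 (adjusted p = 0.039). Each of these calls was lost when any library other than knockdown replicate 3 was left out. PDK1, HIGD1A and FUNDC1 fall outside the rule for named genes and were named after their values were seen. Among subunits and carriers outside the symbol rule, NDUFA4L2 was the 1 called of 6, where 16.7% of all tested rows were called. NDUFA4L2 is in both lists, so this is the same call as above. Cytochrome c (CYCS) stood at 102 ± 1.0 FPKM in knockdown cells and 107 ± 2.4 FPKM in the control (adjusted p = 0.14).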

How the data were processed

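RNA of 6 H358 libraries was prepared with a stranded mRNA kit, per the labels' protocols. The deposited values are FPKM per Ensembl gene and library, made by the authors; TopHat 1.4.1, Cuffdiff 2.2.0 and hg19 are named in the submitters' processing notes. Which annotation was used, and whether strand was used in counting, is not given in the sources. FPKM carry no totals, so depth is unknown and only relative depth was read from values under 0.3 FPKM.

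Tests used limma 3.58.1 in R 4.3.3, with a variance trend on intensity and two-sided p, on log2(FPKM + 1) of the 13611 rows whose mean was 1 FPKM or more, knockdown minus control, with Benjamini-Hochberg adjustment over all of them and a threshold of 0.05. Every adjusted p in the text is from this fit unless a setting is named. On this scale the change of genes at low levels is understated. The fit was tested on simulated data.

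GENCODE v29 gave transcript lengths and GC content by Ensembl ID (all 82 members). Starts in the file count from 0 and were raised by 1. Members, gene lists and the naming rule were chosen with earlier results of these data known. The rule named called members, the highest member of each complex, core subunits, paralogs and called genes of the other lists, up to 4 a list. Members outside it that are named, such as NDUFA4, NDUFB5, NDUFB6, COX7C, UQCRH, ATP5D, ATP5L and ATP5F1, were chosen after their values were seen. No list was given a test of its own. The values of 1 member, which stays in all counts, are not reported here. Alternatives were a replicate block, other pseudocounts, filters and scalings, no trend, a correction for GC content and length, and leaving out each library.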

Additional observations from a re-analysis of the deposited data

How the results depend on the processing

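No called result changed direction under any of the alternatives run. With the replicate number as a block, 1433 genes were called over all tested rows (491 higher), and of the members 2 (0 higher, 2 lower): COX6B2 and NDUFS4. The labels name no shared batch and do not say whether the numbers pair the libraries. The deviations of same-numbered libraries correlated at -0.0171, 0.0625 and 0.0701, and those of libraries with different numbers at -0.142 to 0.0874. Such values cannot show which libraries were prepared together. Without the filter on low values 1413 genes were called (497 higher, 916 lower), and of the members 2 (1 higher, 1 lower). Without the intensity trend 2 members were called (1 higher, 1 lower). With TPM scaling 10 were called (7 lower), and after the correction for GC content and length 5 were called higher. Leaving out 1 library at a time gave 1187 to 1983 calls over all genes (403 to 850 higher, 761 to 1133 lower) and 2 to 10 member calls (1 to 8 higher, 1 to 2 lower); the median log2 fold change of the members then ran from -0.0161 to 0.0129. The cause of these changes was not tested, beyond that a left-out library leaves fewer samples. COX6B2 was called under every alternative that tested it (adjusted p 0.0015 to 0.0162); a filter of 5 FPKM left it out. Total depth is unknown, so no counting error could be given, and 3 libraries a group limit the precision.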
